A study of Drosophila melanogaster with 15 samples.

Results

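Genes that carried R-loop peaks on their own strand in early or late Drosophila melanogaster embryos were compared gene by gene. A gene counted as R-loop forming at an age when at least 1 peak of that age overlapped it by 1 bp or more on its strand, which is called a sense peak here. Of 17796 annotated genes on the 7 sequences that carry peaks, 5310 had a sense peak at 1 or both ages. Peaks were found at 2–3 h only in 1427 genes, 8.02% of all genes, at 14–16 h only in 1141 genes, 6.41%, and at both ages in 2742 genes, 15.4%.

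The embryos were whole Oregon R embryos, a wild-type laboratory strain kept in population cages at 25 °C, collected at 2–3 h or at 14–16 h after egg laying and otherwise untreated. Each collection pools embryos and all their tissues. R-loops were mapped by ssDRIP-seq, in which an antibody against RNA:DNA hybrids recovers DNA and the strand of each fragment is kept. Each age has 2 ssDRIP replicates, 2 inputs and 1 control in which RNase H1 had degraded hybrid RNA before the pull-down. The 2 replicates stand in 1 peak list per age, so no value below has a replicate error, no test of age is possible, and intervals are 95% Wilson intervals that cover counting error only. The lists give positions and widths without height or read count, so depth is unknown and the tissue and age labels cannot be checked against marker expression. Another list, from S2 cells, a cell line from late embryos, played no part in sorting the genes and is used for comparison. Fewer cells forming an R-loop and fewer R-loops per cell cannot be told apart in whole embryos.

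An R-loop forms when an RNA pairs with 1 strand of the DNA and displaces the other strand, most often when a nascent transcript pairs with its own template. In the fly, the earlier age spans the onset of zygotic transcription, when the embryo cellularises and maternal RNAs are being cleared. By the later age the organs are laid down, neurons extend axons, muscles differentiate and the cuticle begins to form.

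One difference between the lists bears on every count of peaks. In the 14–16 h list, 44.5% of peaks overlapped a peak of the same list on the other strand by at least 50% of both peaks, against 11.4% in the 2–3 h list and 9.89% in the S2 list. Peaks with such a partner were left out in a separate count. The other count kept only the widest 22581 of the 14–16 h peaks, the number of peaks at 2–3 h. For the gene lists, the chromosomes and the named genes, both separate counts were chosen after the data were seen. Values from these counts are given beside the results on gene classes, chromosomes, lists and named genes where they move most. The shortened list loses only 14–16 h peaks, and leaving out paired peaks takes a larger share at 14–16 h. A count already lower at 14–16 h is therefore not put to a test by either. The part of such paired peaks in the differences between ages was not tested.

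A few peaks and a repeat unit show the kinds of sequence that set the classes apart, and all are read from dm6 on the strand of the gene from 5′ to 3′. The first peak lies in a coding exon of Jarid2, which encodes a partner of Polycomb repressive complex 2 and had peaks at 2–3 h only (chr3L:9480618-9480895, forward strand, 51.4% GC). Its capitals mark a run of 12 or more purines. No peak of the other strand met it.
Jarid2: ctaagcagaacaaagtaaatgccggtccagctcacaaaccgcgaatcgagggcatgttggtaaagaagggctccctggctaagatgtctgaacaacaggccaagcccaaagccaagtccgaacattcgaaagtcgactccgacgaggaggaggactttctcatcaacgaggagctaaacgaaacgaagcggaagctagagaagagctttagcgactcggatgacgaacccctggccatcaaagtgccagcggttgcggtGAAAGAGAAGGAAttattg
The unit comes from Muc14A, a mucin gene on the X chromosome with peaks at 2–3 h only, and occurred 79 times in the gene (chrX:16013878-16013907, forward strand, coding exon).
Muc14A: aaaatccttacctcaattaacaacagaaga
A pair of peaks at 14–16 h lie in introns of genes without a sense peak at 2–3 h. These are PAN3, a subunit of a deadenylase (chr3L:3082627-3082868, forward strand, 31% GC, with no peak on the other strand), and CG43155 (chrX:11462611-11462848, forward strand, 40.3% GC, with 1 peak on the other strand). The capitals mark runs of 10 or more A.
PAN3: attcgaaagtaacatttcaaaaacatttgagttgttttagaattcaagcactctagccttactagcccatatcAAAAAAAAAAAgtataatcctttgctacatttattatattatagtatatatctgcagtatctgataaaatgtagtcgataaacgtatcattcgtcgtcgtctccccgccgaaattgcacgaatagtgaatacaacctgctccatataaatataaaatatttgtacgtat
CG43155: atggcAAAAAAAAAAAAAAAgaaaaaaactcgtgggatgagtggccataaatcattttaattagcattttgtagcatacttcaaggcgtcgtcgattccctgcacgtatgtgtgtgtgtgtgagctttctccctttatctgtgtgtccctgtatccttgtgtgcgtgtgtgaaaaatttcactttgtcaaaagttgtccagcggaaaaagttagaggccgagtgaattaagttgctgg
The last is an intronic 14–16 h peak of kirre that met no peak of its strand at 2–3 h and 1 peak of the other strand at 14–16 h (chrX:3069881-3070107, forward strand, 34.4% GC), with a run of 10 A in capitals.
kirre: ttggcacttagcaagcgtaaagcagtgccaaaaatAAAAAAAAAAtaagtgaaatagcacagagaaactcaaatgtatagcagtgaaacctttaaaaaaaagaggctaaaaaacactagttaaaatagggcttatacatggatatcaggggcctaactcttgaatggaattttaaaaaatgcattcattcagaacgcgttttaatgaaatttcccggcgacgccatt

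Runs of 10 or more A on the strand of the peak were held by 45.5% of all 2–3 h peaks, 54.6% of all 14–16 h peaks and 23.3% of all S2 peaks, against 5.07% of genomic windows of 400 bp read on both strands. Runs of 12 or more purines were held by 68%, 61.1% and 64.4% of the peaks of these lists and 15.3% of the windows. The sequences were searched as letters on the strand of the peak, and a T run marks an A run on the other strand. Runs of 10 or more T were held by 7.35% of the 2–3 h peaks and 17.4% of the 14–16 h peaks.

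Which class was larger depended on how peaks were assigned to genes. Genes with peaks at 2–3 h only outnumbered those at 14–16 h only 1.25 times, but 1611 stood against 1615 when genes were extended by 500 bp on both sides. Without peaks paired across strands the ratio was 2.31, and with at least 2 peaks required per age it was 0.755. The edge of the rule weighed more on the class at 14–16 h only. With the peak centre required inside the gene, 1346 genes stood at 2–3 h only and 895 at 14–16 h only, a ratio of 1.5. Among genes with peaks at 2–3 h only, 33 had under 50 bp of peak inside the gene, and 108 had a 14–16 h peak within 500 bp of the gene on its strand. Among genes with peaks at 14–16 h only these numbers were 84 and 89.

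Most genes with peaks at a single age had 1 peak there. A single peak was all that 1255 of the 1427 genes had at 2–3 h, and all that 1000 of the 1141 genes had at 14–16 h. Genes with peaks at 2–3 h only had a median length of 2483 bp, those at 14–16 h only 3196 bp, those at both ages 11824 bp and those at neither age 1314 bp. Among genes of 2 to 5 kb, 11.9% had peaks at 2–3 h only and 6.41% at 14–16 h only. Among genes of 10 to 20 kb the shares were 10.7% and 16.6%. Of the 325 genes of 50 kb or more, 98.2% had peaks at both ages.

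**Figure D1:**
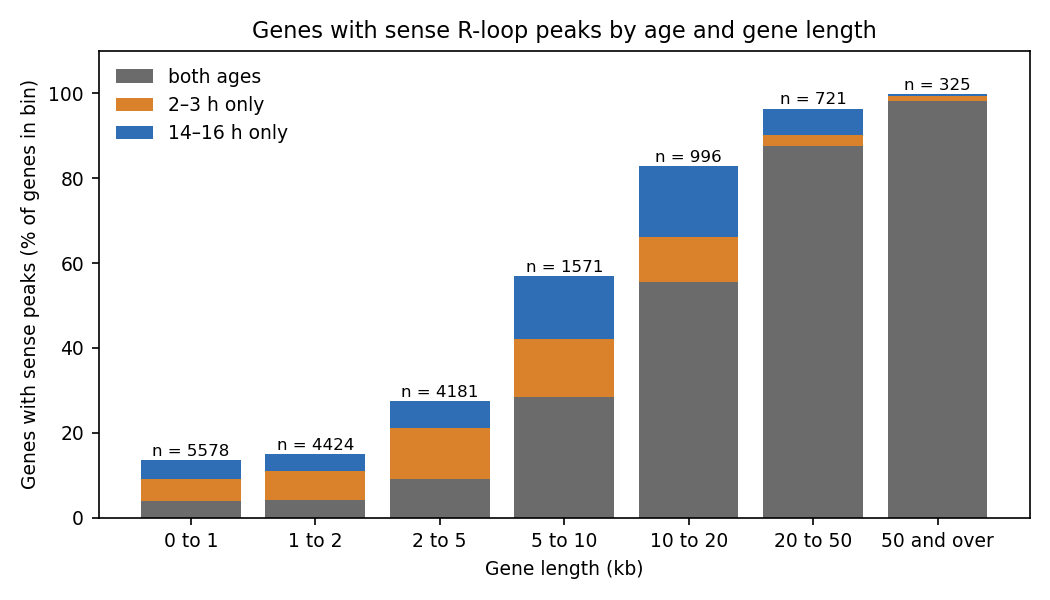
Share of genes with sense peaks at both ages, at 2–3 h only and at 14–16 h only, in percent of the genes in each bin of gene length in kb, with the number of genes above each bar. The 2–3 h only class outweighs the 14–16 h only class below 5 kb, and nearly all genes of 50 kb or more have peaks at both ages.

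The class with peaks at 14–16 h only held a larger share of noncoding genes than the class at 2–3 h only. Protein-coding genes made up 86.7% of the genes with peaks at 2–3 h only and 77.3% of those with peaks at 14–16 h only. They were 13944 of all 17796 genes, 89.2% of genes with peaks at both ages and 75.1% of those at neither. The share at 14–16 h only thus lay near that of genes without peaks. Of 1987 lncRNA genes, 113 had peaks at 2–3 h only and 162 at 14–16 h only. Of 290 tRNA genes, 1 had peaks at 2–3 h only and 26 at 14–16 h only, and of 98 rRNA genes the numbers were 10 and 26. The counts for tRNA and rRNA genes are uncertain because reads of near-identical copies can be placed at any of them.

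The peaks of the 2 classes lay in different parts of their genes. Of the 1651 peaks in genes with peaks at 2–3 h only, 56.4% (95% interval 54 to 58.8) were centred in coding exons, 13.6% in introns and 19.4% in UTRs or exons of noncoding genes. Of the 1343 peaks in genes with peaks at 14–16 h only, 7.37% (6.09 to 8.89) were centred in coding exons, 38.7% in introns and 31.5% in UTRs or noncoding exons. The rest were centred outside the gene that they overlapped, which was the case for 10.6% of the former and 22.4% of the latter. Without peaks paired across strands, the coding shares were 59.7% and 7.55%. The ends of the genes did not set the classes apart in the same way. Peaks centred within 500 bp of the gene start made up 23.9% at 2–3 h and 26.4% at 14–16 h, and those within 500 bp of the gene end 19% and 24.6%.

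The base composition of these peaks differed as well. Median GC content was 49% for the peaks of genes with peaks at 2–3 h only and 39.3% for those of genes with peaks at 14–16 h only. Runs of 10 or more A were in 9.02% (7.74 to 10.5) of the former and 44.3% (41.7 to 47) of the latter. The difference was also seen between peaks in the same kind of sequence, since among intronic peaks 19.1% (14.5 to 24.8) and 45.8% (41.5 to 50.1) held such a run. Runs of 12 or more purines were in 61.8% and 49.6%. Jarid2 and PAN3 above are examples of each composition.

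Antisense peaks, which lie on the strand opposite the gene, also differed between the classes. A 2–3 h peak on the other strand lay in 26.5% (24.3 to 28.8) of the genes with sense peaks at 2–3 h only. It lay in 360 (31.6%) of the 1141 genes with sense peaks at 14–16 h only, and in 63.1% of genes with sense peaks at both ages. A 14–16 h peak on the other strand lay in 9.53%, 58.3% (55.4 to 61.1) and 75.7% of these classes, in the same order. The part of peaks paired across strands in these shares was not tested. Sense peaks at 2–3 h only with antisense peaks at 14–16 h only were found in 41 of 1427 genes. The opposite was found in 25 of 1141 genes. Both counts were taken over whole genes, so they do not show a change of strand at a site. Of genes without a sense peak at either age, 4.53% had an antisense peak at 2–3 h and 4.89% at 14–16 h.

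The S2 list, which was not used to form the classes, overlapped them unequally. An S2 sense peak was present in 75.6% (73.3 to 77.8) of genes with peaks at 2–3 h only and in 25.9% (23.4 to 28.5) of genes with peaks at 14–16 h only. It was present in 74.4% (72.7 to 76) of genes with peaks at both ages and 11% of genes with peaks at neither. Across the alternative counts the first share ran from 58.7% to 79.3% and the second from 22.1% to 31%. On the X chromosome the shares were 49.3% of 146 genes at 2–3 h only and 14.8% of 256 genes at 14–16 h only, and on the large autosome arms 79.3% of 1267 and 29.1% of 875.

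Among genes with peaks at 2–3 h only, Muc14A had the most. It had 20 peaks at 2–3 h, all in coding exons and covering 21.1% of its 52609 bp, and none at 14–16 h or in S2 cells. The gene lies on the forward strand of the X chromosome, 13 antisense peaks lay in it at 2–3 h, 12 sense peaks remained without paired peaks, and 81.5% of its stretches of 30 bases occurred more than once within it. The same share was 0.0266% for Sh and 0 for kis and Akap200. The part of this repetition in the peak calls was not tested. Akap200, an anchor protein for protein kinase A, had 5 peaks at 2–3 h, of which 4 were intronic, none at 14–16 h and 7 in S2 cells.

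Su(var)2-HP2, a partner of heterochromatin protein HP1, had 4 peaks at 2–3 h, all coding, and 4 in S2 cells. Mgtor, a protein of the nuclear pore basket, had 3 peaks at 2–3 h, all coding, and 4 in S2 cells. Jarid2 had 4 peaks at 2–3 h, of which 3 were coding, and none in S2 cells. NAT1, a translation factor related to eIF4G, had 4 peaks at 2–3 h and 4 in S2 cells. Cep290, a centriole and cilium protein, had the same numbers. Dh44, a diuretic hormone, had 4 peaks at 2–3 h, CG42232 had 3, and l(3)neo38, a zinc-finger protein, had 3. All of these had no sense peak at 14–16 h, and their counts without paired peaks were the same. Over these 10 genes, 40 of 54 peaks were centred in coding exons and 4 held a run of 10 or more A, and 8 of the 10 genes had an S2 peak. Of the 54 peaks, 20 were those of the repetitive gene Muc14A, all of them coding and none with an A run.

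The genes with the most peaks at 14–16 h and none at 2–3 h differed in position and sequence. Hk, the beta subunit of the Shaker potassium channel, had 7 peaks at 14–16 h over its 30139 bp, none at 2–3 h and none in S2 cells. Of these, 4 were intronic and 3 lay in UTRs or noncoding exons. Pvf1, a ligand of the PDGF and VEGF receptor family, had 4, all with an A run. Atf3, a bZIP transcription factor, ogre, the founding innexin of gap junctions, and Deaf1, a transcription factor, had 4 each and no S2 peak. PAN3 had 4, CG10019 had 6, CG13024 had 5, and CG43155 and CG32647 had 4 each.

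Over these 10 genes, 1 of 46 peaks was centred in a coding exon, 29 in introns and 16 in UTRs or noncoding exons. A run of 10 or more A was in 31 of the 46, and 19 met a peak on the other strand. Of the 10 genes, 6 lie on the X chromosome and 4 had an S2 peak. Without paired peaks all 10 kept at least 2 sense peaks at 14–16 h, among them 4 for Hk and 4 for ogre.

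In the 2742 genes with peaks at both ages, more genes had more peaks at 14–16 h than fewer. More peaks at 14–16 h were found in 1026 genes (37.4%), fewer in 437 (15.9%) and equal numbers in 1279 (46.6%), and 1003 genes had 1 peak at each age. The order turned without peaks paired across strands, where 466 genes had more and 676 had fewer. With the 14–16 h list shortened to its widest peaks, the numbers were 754 and 560. Of the genes whose count differed, 47.5% differed by 1 peak. A difference of 5 or more was found upward in 200 genes and downward in 20.

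Most of these genes kept a site. An early and a late peak overlapped in 2502 of the 2742 genes, 91.2% (90.1 to 92.2), and in 877 of the 1003 genes with 1 peak at each age. Of the 8456 peaks at 2–3 h, 69% met a 14–16 h peak on the same strand, and of the 10982 peaks at 14–16 h, 46.7% met no 2–3 h peak. Of the 2–3 h peaks that met a late peak, 4.71% were coding, 67.1% were intronic and 67.2% held an A run. Of the 2–3 h peaks that met none, 19% were coding, 67.5% were intronic and 19.5% held an A run. Of the 14–16 h peaks that met no early peak, 1.72% were coding, 84% were intronic and 47.5% held an A run. In this last set 58.3% met a peak on the other strand, and so did 58.1% of all 14–16 h peaks of these genes. Of the 2–3 h peaks, 26.2% of those that met a late peak and 23.8% of those that met none did so. This share thus differed between the lists, and little between kept and other peaks of 1 list.

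**Figure D2:**
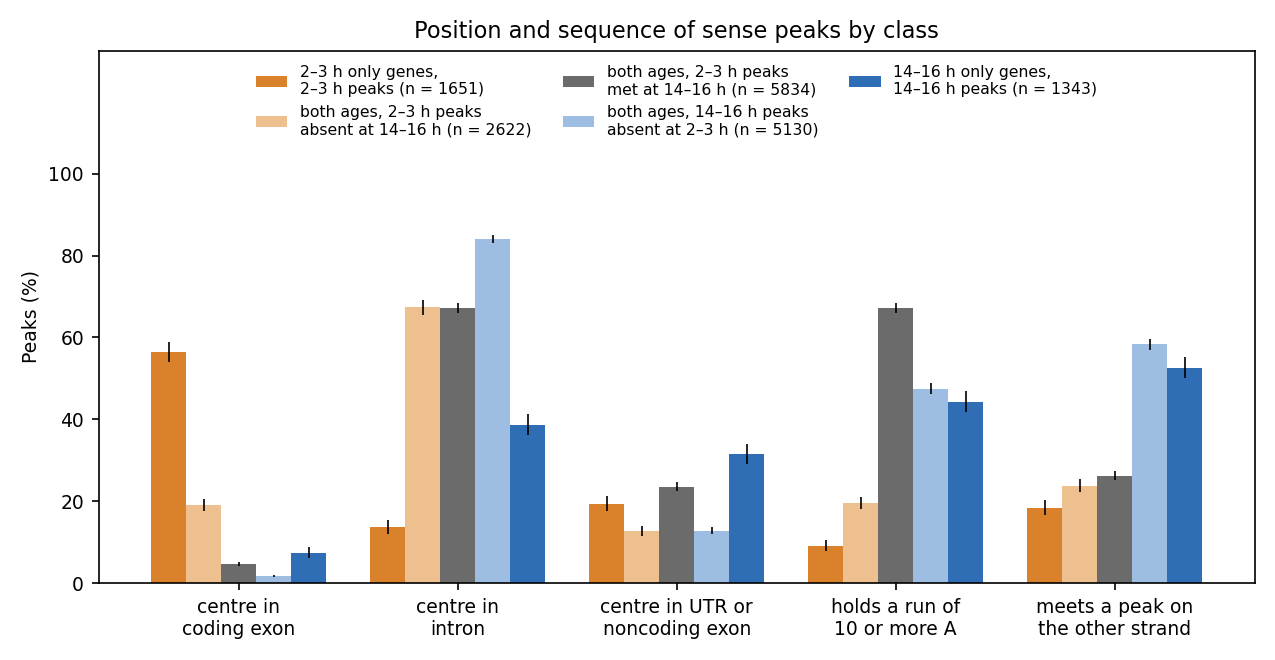
Percent of sense peaks centred in coding exons, introns and UTRs or noncoding exons, with a run of 10 or more A on the gene's strand, and overlapping a peak on the other strand, for 5 sets of peaks, where bars are shares and lines 95% Wilson intervals. Peaks of genes with peaks at 2–3 h only are coding in 56.4%. In genes with peaks at both ages, 58.3% of the 14–16 h peaks absent at 2–3 h meet a peak on the other strand. This is near the 58.1% of all 14–16 h peaks of those genes, which are not drawn. In genes with peaks at 14–16 h only the share is 52.6%.

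No site was shared in 240 of the 2742 genes, of which 3 with many peaks are given, chosen after their values were seen. The beat family genes beat-IIa and beat-Ib, whose founding member acts in axon defasciculation, had 1 peak each at 2–3 h and 9 and 8 at 14–16 h. Bicra, a subunit of a Brahma chromatin remodelling complex, had 8 at 2–3 h and 2 at 14–16 h.

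The 12 largest rises in peak number, which are differences between the 2 lists without a test, were all in long genes on the X chromosome, of 94571 to 394149 bp. The gene kirre, an immunoglobulin adhesion protein of muscle founder cells, had 54 peaks at 2–3 h and 99 at 14–16 h (X, 394149 bp). Ten-a, a teneurin of the synapse, had 50 and 80, and dpr8, an immunoglobulin protein of synaptic recognition, had 14 and 32. Sh, the Shaker potassium channel, had 9 and 27. The 9 early sites of Sh were all met by late peaks, and Hk, its beta subunit, was described above.

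The other rises were in signalling and membrane genes and noncoding RNAs. The gene dnc, a cAMP phosphodiesterase required for memory, had 26 peaks at 2–3 h and 52 at 14–16 h, and rdgA, a diacylglycerol kinase of photoreceptors, had 21 and 42. The values were 27 and 59 for mamo, a zinc-finger protein, 22 and 43 for mgl, the endocytic receptor Megalin, and 17 and 35 for kek5, a transmembrane protein with leucine-rich repeats. Flo2, a flotillin, had 7 and 24. The noncoding genes lncRNA:CR44357 and lncRNA:CR44999 had 41 and 66, and 29 and 48. Over the 12 genes, 547 of 607 late peaks were intronic, 427 held an A run and 414 met a peak on the other strand, against 91 of 317 early peaks.

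Without the paired peaks these genes separated. Sh had 9 peaks at 2–3 h and 22 at 14–16 h, Flo2 had 7 and 17, mamo had 26 and 37, and dpr8 had 14 and 21, so the late count stayed higher. The counts came to 48 and 47 for kirre, 24 and 23 for dnc, 15 and 15 for kek5 and 22 and 23 for lncRNA:CR44999. The order turned for Ten-a, with 45 and 38, and for lncRNA:CR44357, with 35 and 28. The values were 19 and 26 for mgl and 19 and 22 for rdgA. With the 14–16 h list shortened to its widest peaks, all 12 genes kept a higher count at 14–16 h, among them kirre with 54 and 82.

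**Figure D3:**
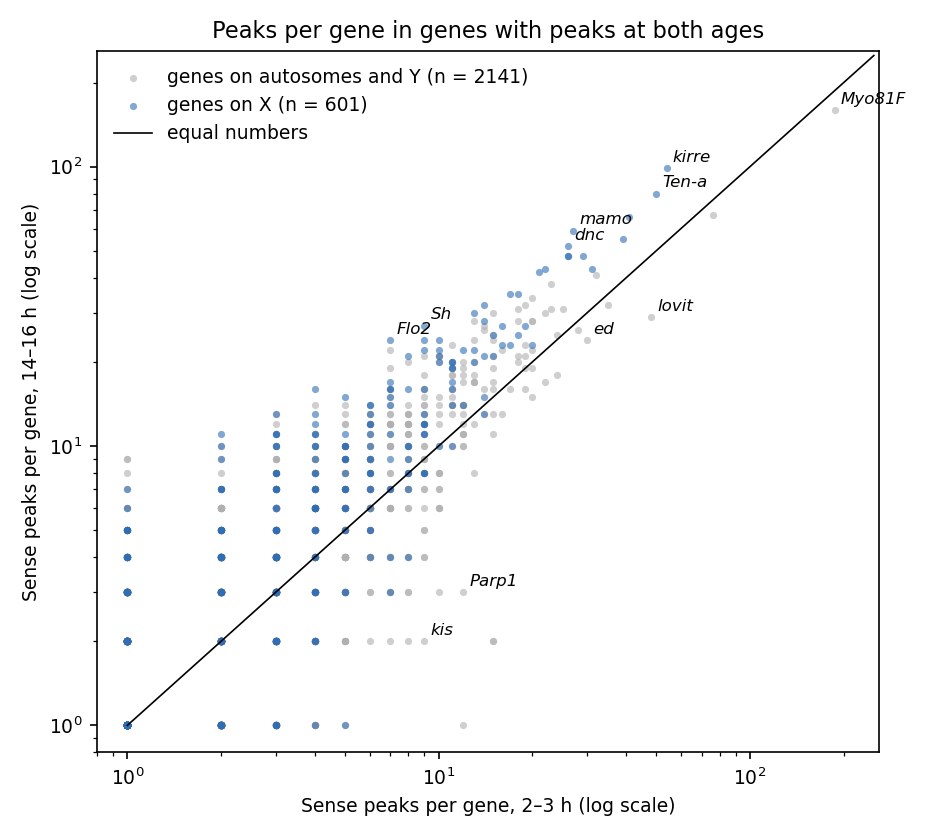
Sense peaks per gene at 2–3 h (x axis) and at 14–16 h (y axis), both on log scales, for the 2742 genes with peaks at both ages, with genes on the X chromosome in blue, other genes in grey and a line at equal numbers. Points of genes with the same pair of counts lie on each other, and kirre, Ten-a, mamo, dnc, Sh and Flo2 lie above the line while Myo81F, lovit, ed, Parp1 and kis lie below it.

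The X chromosome differed from the large autosome arms in each class. On X, 5.4% of 2704 genes had peaks at 2–3 h only and 9.47% at 14–16 h only, while on 2L, 2R, 3L and 3R together 8.52% of 14865 genes and 5.89% did. Among genes with peaks at both ages, 275 of 601 on X had more at 14–16 h and 60 fewer, against 739 and 373 of 2105 on the autosome arms. In shared genes of 20 kb or more, 80% of 200 had more late peaks on X and 62.8% of 734 on the arms. Sense peaks numbered 2174 at 2–3 h and 3442 at 14–16 h on X, a ratio of 1.58, and 7321 and 8165 on the arms, a ratio of 1.12. The ratio over all peaks, genic or not, was 1.63 on X and 1.2 on the arms. Without paired peaks the sense ratio was 0.99 on X and 0.704 on the arms. The order of the classes on X also turned, from 146 genes at 2–3 h only and 256 at 14–16 h only to 225 and 183 without paired peaks and 180 and 168 with the shortened list. Shared genes on X with more and fewer late peaks numbered 134 and 129 without paired peaks. Among the 113 genes of the Y chromosome, 11 had peaks at 2–3 h only, none at 14–16 h only and 5 at both ages.

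Of the 12 largest falls, 1 was on X and the others on the large autosome arms, several close to an end of their arm. Myo81F, Pzl and Parp1 lay between positions 567076 and 3587054 of 3R. The gene lovit began at 25236940 on 3L, of 28110227 bp, and CG17684 at 1866080 on 2R. Repetition of sequence in these genes was not measured. Myo81F, a myosin gene of 1965857 bp on 3R, had 187 peaks at 2–3 h and 159 at 14–16 h, and lovit, a histamine transporter of photoreceptors, had 48 and 29. Pzl, related to the Piezo channels, had 76 and 67. Muc14A had 20 and 0. Parp1, poly(ADP-ribose) polymerase, had 12 and 3, and kis, a chromodomain helicase of the Trithorax group, had 9 and 2. The transcription factor jing had 10 and 3. Of the 9 early peaks of kis, 4 were coding and 2 met a late peak.

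The remaining falls were smaller in number of peaks, though not always as a share of the early peaks. The values were 30 and 24 for ed, the adhesion protein Echinoid, 20 and 15 for pros, a homeodomain factor of neural progenitors, 8 and 2 for Bicra, 24 and 18 for CG17684 and 13 and 8 for CG32373. All 12 genes kept a lower count at 14–16 h in both separate counts. With the shortened list this was fixed in advance, since only 14–16 h peaks are lost. Leaving out paired peaks removed 44.5% of the 14–16 h and 11.4% of the 2–3 h peaks, which acts in the same direction. For Myo81F it gave 165 and 79. Ten-m, the other teneurin gene, fell outside the 12 because over 50% of its peaks also overlapped another gene on its strand, and it had 15 and 2.

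**Figure D4:**
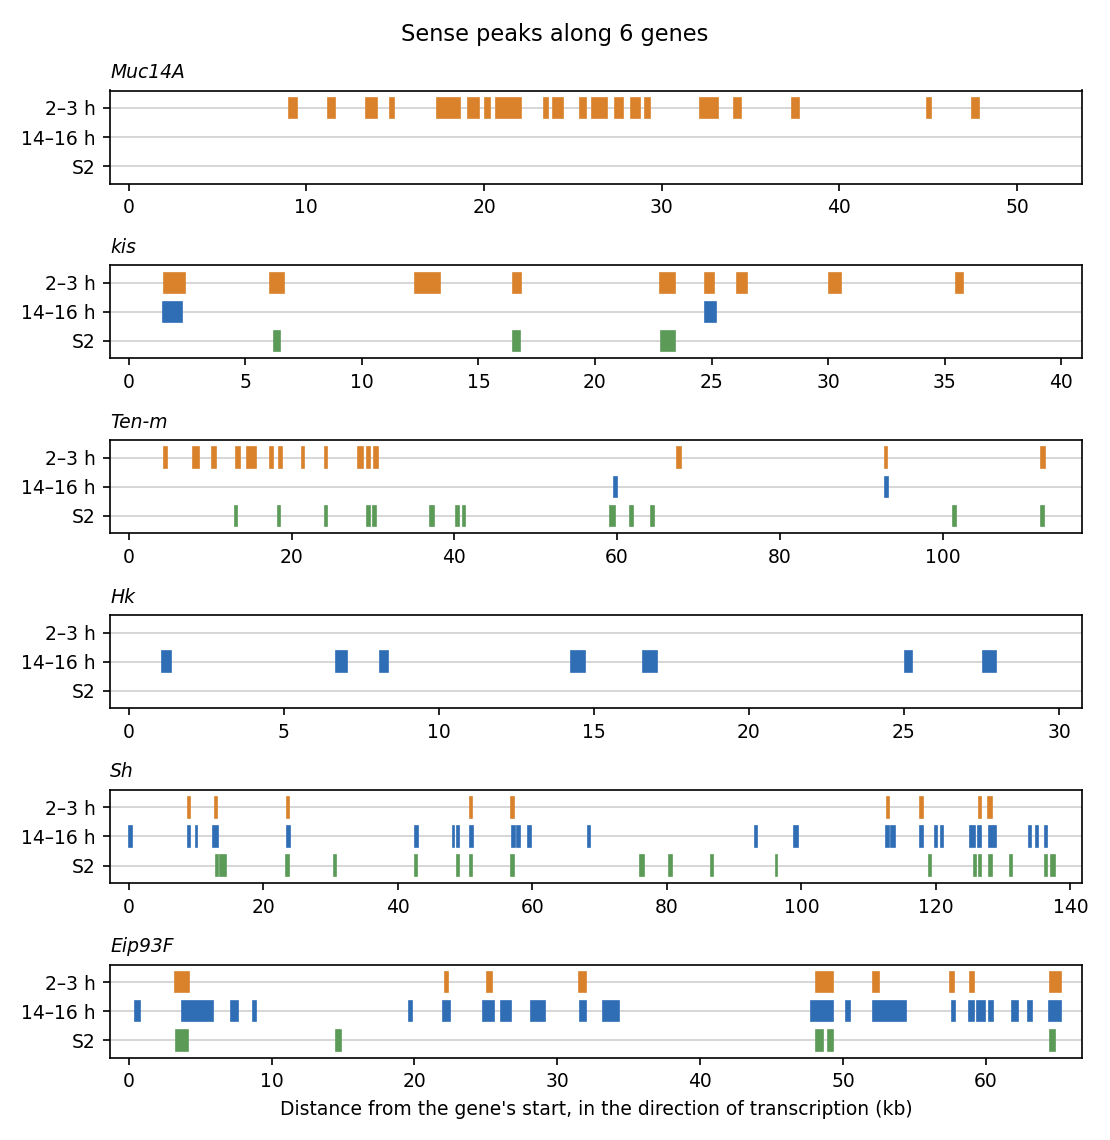
Sense peaks at 2–3 h (orange), 14–16 h (blue) and in S2 cells (green) along Muc14A, kis, Ten-m, Hk, Sh and Eip93F, by distance from the gene's start in kb, where each box spans a peak. Muc14A has 20 peaks at 2–3 h alone, Hk has 7 at 14–16 h alone, kis and Ten-m have 2 each at 14–16 h, and Sh and Eip93F have further peaks at 14–16 h between the early sites.

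Lists of genes with known roles in these stages were counted next, 18 lists in all, of which 398 of 399 symbols matched the annotation. A gene can stand in more than 1 list. The shares over all genes of 8.02% at 2–3 h only, 6.41% at 14–16 h only and 15.4% at both ages are the background of these counts, and so are the 37.4% with more and 15.9% with fewer peaks among shared genes. Over all genes, with a peak counted for each gene that it overlapped, the sums were 10110 peaks at 2–3 h and 12325 at 14–16 h. Long genes had peaks at both ages more often, so the median gene length is given for some lists.

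Of 24 genes of the Polycomb and Trithorax groups, which keep developmental genes silent or active, 11 had fewer peaks at 14–16 h than at 2–3 h and 0 had more. The median length was 7348 bp, and 7 genes had peaks at 2–3 h only (29.2%), 0 at 14–16 h only and 6 at both ages, of which 0 had more and 4 had fewer at 14–16 h. Among all genes of 5 to 10 kb, 13.6% had peaks at 2–3 h only, 14.8% at 14–16 h only and 28.5% at both ages. The list summed to 34 peaks at 2–3 h and 11 at 14–16 h. Those at 2–3 h only were Pc, ph-p, ph-d, Su(z)2 and Su(z)12 of the Polycomb group and brm and ash1 of the Trithorax group. The only peak of ph-d was centred outside the gene. Psc, a subunit of Polycomb repressive complex 1, had 8 and 3, trx 3 and 2, osa 3 and 2, and kis is given above. The other shared genes, phol and Sfmbt, had 1 at each age, and 11 genes of the list had no sense peak at either age. Among these early peaks 13 of 34 were coding, and 0 of 11 late peaks were. Without paired peaks the list had 30 and 7 peaks, and 34 and 11 with the shortened list. Both counts take out mainly 14–16 h peaks, so they do not test this direction.

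The lists of zygotic activators, cellularisation and pair-rule genes likewise held more genes higher at 2–3 h, while the gap and terminal genes below did not. Among 7 activators of zygotic transcription, zld, the pioneer factor Zelda, had 5 peaks at 2–3 h and 3 at 14–16 h, Trl, the GAGA factor, had 5 and 3, most of them shared with another gene on its strand, opa had 2 and 1, and E(bx), a nucleosome remodelling subunit, had 2 and 0. No gene of this list had more at 14–16 h. The list named for cellularisation is not limited to genes of that process. Among its 11 genes, 4 had peaks at 2–3 h only, among them slam, trbl and E(spl)m8-HLH, and the actin nucleator dia had 3 and 1. The only peak of E(spl)m8-HLH was centred outside the gene. The gene dnt had 3 and 4, and 5 genes of this list had no sense peak. The list had 11 and 5 peaks. Of 9 pair-rule genes, which divide the embryo into segments, run and slp2 had peaks at 2–3 h only and slp1 and opa had fewer at 14–16 h, while hry had 3 at each age.

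The cell cycle list also held more genes with early peaks. Of 24 genes, 4 had peaks at 2–3 h only, namely the cyclins CycB and CycB3, the Cdk inhibitor dap and the kinase polo, and 1 at 14–16 h only, the phosphatase twe. Of the 6 genes with peaks at both ages, 3 had fewer at 14–16 h, among them E2f1 with 10 and 8. The 2 with more were stg, with 1 and 2, and fzr, with 2 and 4. Of 92 genes named for cytoplasmic ribosomal proteins, with a median length of 1315 bp, 75 had no sense peak, 11 had a peak at 2–3 h only, among them RpS3 and RpLP0, and 3 at 14–16 h only. All genes of 1 to 2 kb, the length of this list, had peaks at 2–3 h only in 6.85% and at 14–16 h only in 4%. The cell cycle list had a median length of 3588 bp. Among all genes of 2 to 5 kb these shares were 11.9% and 6.41%.

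The Hox, segment polarity, gap and terminal and BTB lists had equal or higher sums at 14–16 h in the full lists. Without paired peaks these sums were lower at 14–16 h. The pair-rule list above differed, with 9 peaks at 2–3 h and 5 at 14–16 h in the full lists. The Hox genes, which set segment identity, had 49 peaks at each age over 8 genes. Antp had 22 and 17, Ubx 12 and 13, and Abd-B 4 and 6. Dfd counted as 2–3 h only through a peak that overlapped it by 15 bp, was centred outside the gene and met a 14–16 h peak. Over 50% of the peaks of Antp also overlapped another gene on its strand. The segment polarity genes had 31 and 36, with wg, the fly Wnt ligand, at 2 and 4 and pan, its nuclear effector, at 2 and 6. The gap and terminal genes had 21 and 26, of which cnc had 6 and 11. The BTB transcription factor genes had 106 at each age, with lola at 19 and 16 and fru at 16 and 22. In this list mod(mdg4), counted over its segments on both strands, had 3 and 0. Without paired peaks the sums were 45 and 22 for the Hox genes, 30 and 26 for segment polarity, 20 and 9 for gap and terminal and 97 and 70 for BTB genes, each lower at 14–16 h.

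Dorsoventral and neuroblast genes held members in both directions. The Dpp inhibitor sog had 11 and 17 peaks, the GATA factor pnr had 3 and 0, and sim, the regulator of the midline, had 0 and 3. Of the neuroblast genes, D had 2 and 0, nub had 1 and 4, and cas had 0 and 1. The gene mira had 2 and 0, but its peaks also overlapped another gene on its strand. The sums were 39 and 40 for the dorsoventral list and 54 and 53 for the neuroblast list, and without paired peaks 38 and 20 and 51 and 30. Among the Notch and EGFR genes, with 116 and 139 peaks, the protease gene kuz had 10 and 21, the EGFR effector pnt had 6 and 13, and the Notch receptor gene N had 14 and 13. The order of this list turned without paired peaks, with 103 and 72 peaks, and 5 shared genes with more and 8 with fewer.

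Axon guidance genes, many of them long, had more peaks at 14–16 h in the full lists, as did long genes in general. Of all 631 shared genes of 20 to 50 kb, 393 had more and 126 fewer, and of all 319 of 50 kb or more 235 and 59, so the counts of this list and the next lie near those of genes of their length. Of 33 genes with a median length of 40180 bp, 28 had peaks at both ages, of which 18 had more and 4 fewer at 14–16 h, 3 had peaks at 14–16 h only and 0 at 2–3 h only. The 3 were the receptor robo1, the receptor Eph and its ligand Ephrin, with 1 peak each. Sema1a, a semaphorin, had 10 and 20 peaks, Fas2 and Nrg, immunoglobulin adhesion proteins, had 11 and 20 and 7 and 16, and the netrins NetA and NetB had 6 and 11 and 11 and 16. The list had 221 and 310 peaks, and 203 and 170 without paired peaks. In that count 9 shared genes had more and 13 had fewer.

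Genes of neuronal function, also long, had more peaks at 14–16 h in the full lists. Of 31 genes with a median length of 36312 bp, 26 had peaks at both ages, of which 16 had more and 4 fewer at 14–16 h, and the list had 196 peaks at 2–3 h and 287 at 14–16 h. The calcium channel gene cac had 12 and 22, the sodium channel gene para 13 and 20, the acetylcholine receptor gene nAChRalpha6 20 and 28, and Rdl, a GABA receptor, 8 and 13. The synaptic vesicle gene nSyb had 0 and 2 and the transporter gene VGlut 0 and 1. Fewer peaks were found in the active zone gene brp, with 7 and 2, and in futsch, a microtubule-associated protein, with 7 and 3, and elav had 1 and 0, a peak that also overlapped another gene on its strand. On X lie 10 of the 31 genes. Each peak counted once, the list had 182 and 191 without paired peaks, and 10 shared genes had more and 9 fewer.

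Ecdysone response, muscle and cuticle genes had higher sums at 14–16 h in the full lists, as did all genes together. The muscle and cuticle sums differed between ages by about the same ratio as the sums over all genes. Of 20 ecdysone genes, 9 of the 12 with peaks at both ages had more at 14–16 h, with 77 and 110 peaks in all. Without paired peaks 4 of the 12 had more and 5 fewer. Eip93F, a transcription factor of metamorphosis, had 9 and 21, Eip75B and Hr4, nuclear receptors, had 15 and 21 and 5 and 10, and ImpE1 had 8 and 4. All 9 early sites of Eip93F were met by late peaks. Of 25 muscle genes with 75 and 90 peaks, how had 8 and 13, Mf had 3 and 6, Act57B and Mlc1 had 0 and 1, and Tm2 had 2 and 0. Of 20 cuticle and trachea genes with 43 and 53 peaks, sty had 5 and 9, bnl had 4 and 7, and Ddc and verm had 0 and 1. Without paired peaks the sums were 71 and 63 for the ecdysone list, 62 and 59 for the muscle list and 38 and 31 for the cuticle and trachea list, each lower at 14–16 h.

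**Figure D5:**
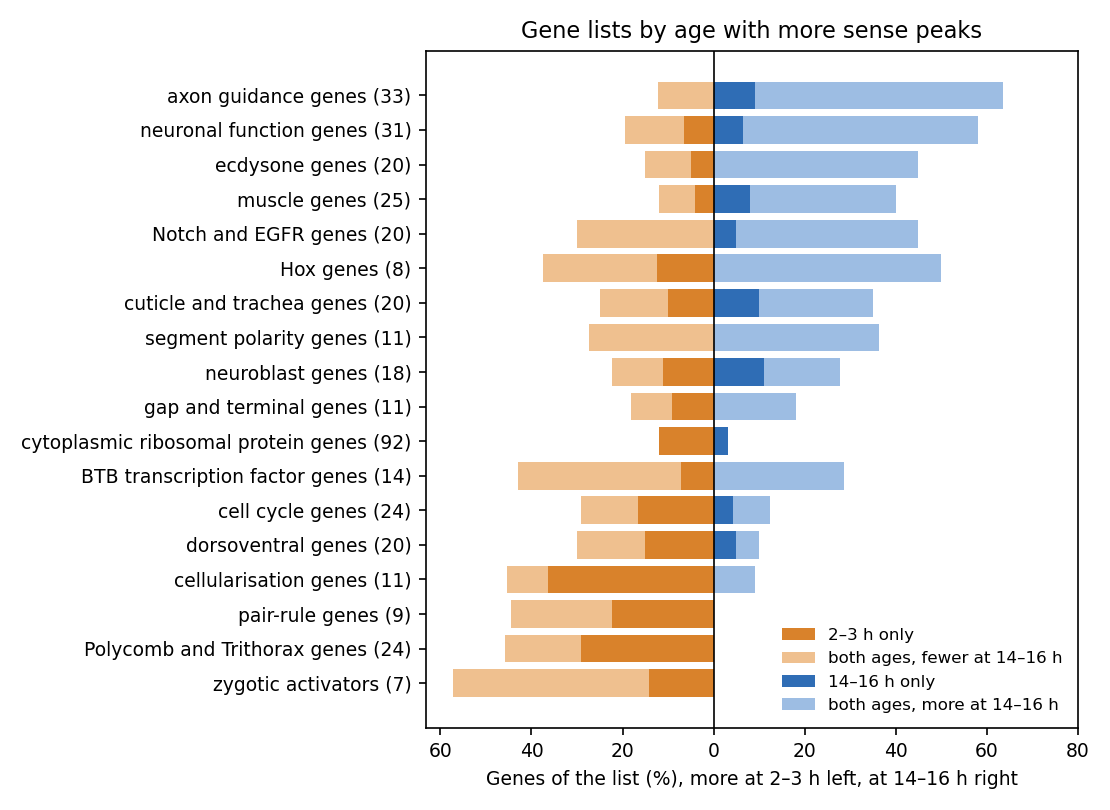
Percent of each list's genes with more sense peaks at 2–3 h (left, 2–3 h only or fewer at 14–16 h) or at 14–16 h (right, 14–16 h only or more), with the number of genes in parentheses. In the axon guidance list 21 of 33 genes have more at 14–16 h and 4 fewer, and in the Polycomb and Trithorax list 0 and 11 of 24 do. These are counts in all peaks, including those paired across strands.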

How the data were processed

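ssDRIP-seq peak lists of whole embryos at 2–3 h and 14–16 h and of S2 cells were used. The authors aligned reads to dm6 with bowtie2, separated strands, called peaks with MACS2 on the 2 replicates together, and removed peaks found on both strands with a high reciprocal overlap. Other values of the deposited lists are the peak positions and widths in bp, and no height is given. Controls for calling are given in the methods as RNase H1 digestion, and elsewhere in the study as input and digestion both. Every peak end lay within the chromosome lengths of the Release 6 genome, and starts were converted to count from 1.

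Gene models were those of RefSeq (FlyBase 6.54). Peaks overlapping several genes counted for each. The gene mod(mdg4), annotated on both strands, was left out of peak positions and sequences. Exon or intron was read at the peak centre over all transcripts, with coding exons first. The members and gene lists were chosen with earlier results of these data known. Named genes were the 12 largest rises and falls in peak number and the 10 genes of each single age with the most peaks, ties by covered bp, where at least 50% of the peaks overlapped no other gene on that strand, and those of a list with the largest differences or a stated role. Assignment was tested on simulated data. Scripts ran in Python 3.11.15 with SciPy 1.17.1 for intervals, NumPy 2.4.6 for quantiles and matplotlib 3.10.9 for plots.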

Additional observations from a re-analysis of the deposited data

How the results depend on the processing

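No paired analysis was possible because the 2 replicates of each age stand in 1 peak list, and no replicate could be left out for the same reason. With peaks of the other strand counted in place of sense peaks, 748 genes had peaks at 2–3 h only, and S2 peaks were in 58.7% and 22.3% of the genes with peaks at 2–3 h only and at 14–16 h only. With at least 2 peaks required, the genes at 2–3 h only, at 14–16 h only and at both ages numbered 372, 493 and 1187, those with more and fewer late peaks 674 and 237, and the S2 shares were 60.8% and 31%. With peaks wider than the median of their list, 1653 genes had peaks at both ages, 610 had more and 262 fewer, the S2 shares were 64.2% and 22.1%, and the coding shares 59.5% and 2.51%. Without peaks paired across strands, 466 genes had more and 676 fewer, the first S2 share was 71.3% and the first coding share 59.7%. With strand ignored, 1800 genes had more and the second S2 share was 29.4%. The first S2 share was 77.8% in protein-coding genes. The second was 28.8% with the peak centre in the gene and 29.1% with at least 50% of the peak in it. On the autosome arms alone, an alternative chosen after the data were seen, the S2 shares were 79.3% and 29.1%.

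At zones of 250 and 1000 bp and in genes of at least 2 kb, peaks of genes at 2–3 h only lay near the gene start in 13.4%, 35.6% and 15.2% and near the end in 9.87%, 29.6% and 8.44%. Those of genes at 14–16 h only did so in 19.6%, 32.6% and 16.7% and in 20.3%, 30% and 13.6%. The first coding share was 59.8% in genes of at least 2 kb. The same site was kept in 82.8% of shared genes at 50% reciprocal overlap and 92.3% within 500 bp. The cause of these shifts was not tested. The lists hold no heights, so a lost peak cannot be told apart from a signal just under the authors' threshold, and a count of peaks can change when a wide peak is split.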
